A study of Oryza sativa with 6 samples.

Results

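The light reactions of photosynthesis take place in the thylakoid membrane of the chloroplast. Antenna proteins of the Lhcb family feed light energy to photosystem II and those of the Lhca family to photosystem I, and the cytochrome b6f complex, plastocyanin, ferredoxin and ferredoxin-NADP reductase (FNR) carry electrons onward to NADP. PsbS is not a light harvester but the sensor of lumen acidity that switches on the fast release of excess energy as heat. Most of these proteins are encoded in the nucleus, and their transcripts are among the most abundant in a mature leaf. The genes described here are 35 such nuclear genes of 39477 loci in the deposited rice table. They were chosen by identifier, from a list of genes for Lhcb and Lhca proteins, PsbS, lumenal and small photosystem II subunits, photosystem I subunits, plastocyanin, ferredoxin, leaf FNR and the Rieske protein PetC. All 35 were found in the table, and all 35 were expressed highly enough to be tested.

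The samples were mature leaves of rice, taken 60 days after germination from greenhouse plants (30 °C days, 25 °C nights). The SRL1 knockout, srl1-KO, gave 3 libraries, and its control, labelled non-KO, gave another 3. SRL1 encodes a putative GPI-anchored protein, and its mutants are known for rolled leaves. The labels do not say how the knockout was made, how many lines it covers or which cultivar was used, and they speak of leaves from a single plant, so p-values measure the spread between these libraries, which may be technical. In bulk leaf RNA, fewer cells of a type and less RNA per cell cannot be told apart. SRL1 itself reached 1.62, 2.22 and 1.96 FPKM with the knockout (srl1-KO) and 2.50, 2.70 and 3.30 FPKM in the non-KO libraries, a log2 difference of -0.39 ± 0.15 (SE) that did not pass the threshold (limma adjusted p = 0.107). SRL1 reads were thus present in every srl1-KO library, and this level gives no check of the labels.

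Levels are in FPKM, fragments per kilobase of transcript corrected for the mapped total of the library, so they can be compared between genes of different length. Log2 differences are those of log2(FPKM + 1), with non-KO subtracted from srl1-KO. They were tested with limma over 19556 loci, and a gene was called where the Benjamini-Hochberg adjusted p was under 0.05. The library sums lay between 598611 and 628270 FPKM, and the number of reads behind them is unknown. The median difference of all tested loci was 0.11 as deposited and 0.00 after scaling by TMM factors, so a log2 difference near 0.11 is no change relative to the bulk of loci.

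The 35 genes made up 6.74%, 8.52% and 8.21% of the summed FPKM in the srl1-KO libraries, in the order of their replicate numbers, and 6.34%, 5.80% and 6.88% in the non-KO libraries. Of the 35, 28 were among the 100 most abundant loci of the table and 17 among the 50 most abundant. Lhca1, a photosystem I antenna protein, was the most abundant of them, with a mean of 3471 FPKM over the 6 libraries. PsbS2 was the least abundant, with a mean of 29.2 FPKM. The labelled tissue thus carries the transcripts that define green leaf.

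**Figure D1:**
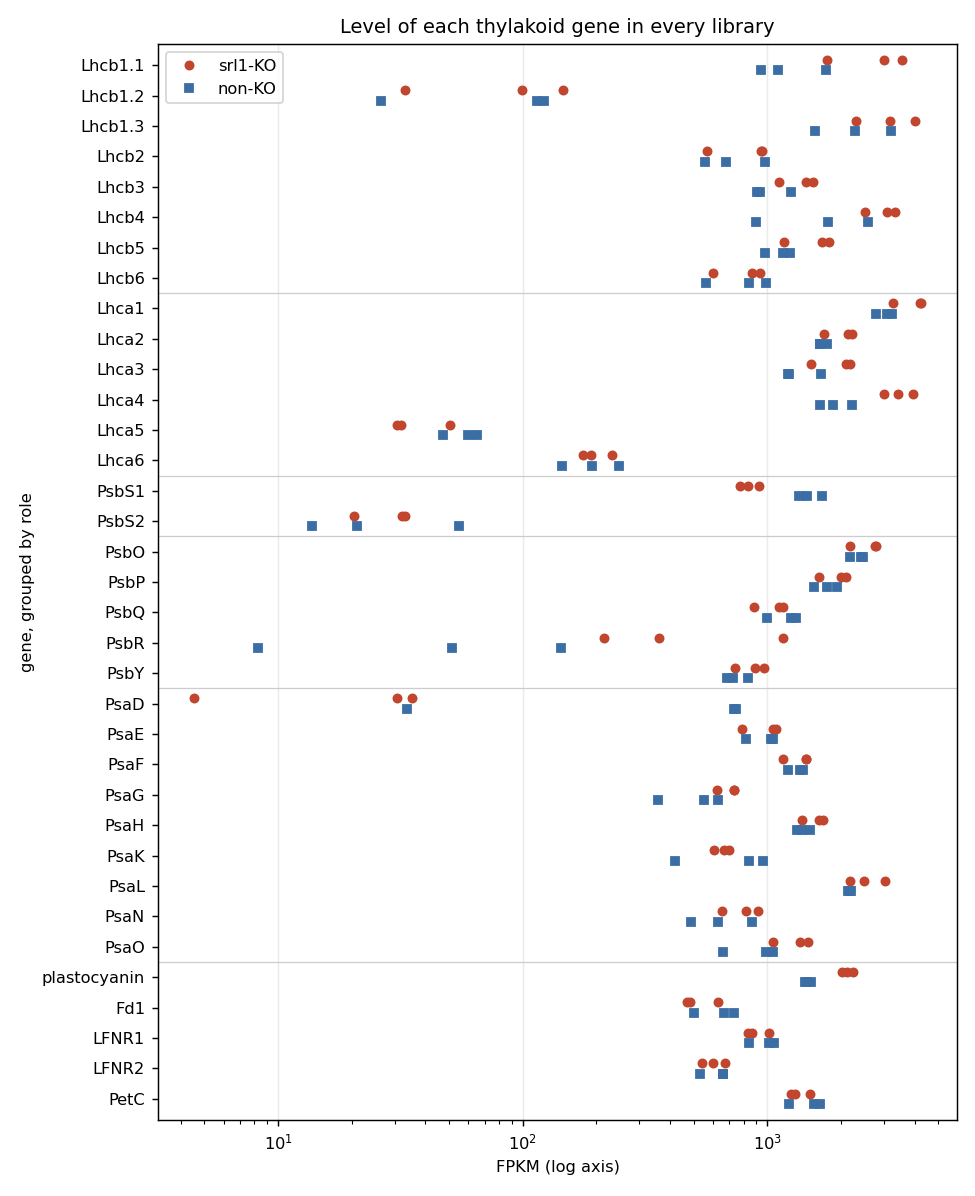
FPKM of each of the 35 genes in every library on a log axis, with srl1-KO libraries as circles above and non-KO libraries as squares below, and lines between role groups. The means of 19 genes lie above 1000 FPKM, 28 genes have overlapping genotypes, and PsaD, PsbR and Lhcb1.2 spread far more between replicates than their neighbours.

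PsbS1 fell in srl1-KO, and Lhca4 and plastocyanin rose. These were the only 3 of the 35 genes to pass the threshold with the FPKM values as deposited. The share of members called higher was 5.71%, against 15.3% of all tested loci, and the share called lower was 2.86%, against 11.9% of all tested loci. This background split depends on the scaling: 2995 loci were called higher and 2326 lower as deposited, against 1937 higher and 2857 lower of 19549 with TMM factors. In either direction 8.57% of the members were called, against 27.2% of all tested loci and 26.6% of 921 abundant loci, those averaging 100 FPKM or more. The median log2 difference of the 35 genes was 0.16, against 0.11 for all tested loci and -0.082 for the 921 abundant loci. Of those abundant loci, 95 were called higher and 150 lower. With TMM factors the median of the 35 genes was 0.03, against 0.00 for all tested loci.

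Of the 32 genes that were not called, 21 had a 95% interval of the log2 difference that lay wholly between -1 and 1. The intervals of the remaining 11 (Lhcb1.1, Lhcb1.2, Lhcb1.3, Lhcb4, Lhca3, Lhca5, PsbS2, PsbR, PsaD, PsaG and PsaO) reached past a 2-fold difference. With called genes included, 22 of the 35 members had an interval wholly between -1 and 1, against 67.2% of all tested loci. The genotypes did not overlap at 6 genes that were higher in srl1-KO (Lhcb1.1, Lhca1, Lhca4, PsbR, PsaO and plastocyanin), or 17.1% of the members against 29.4% of all tested loci, and at 1 gene that was lower, PsbS1 (2.86% against 17.8%). These 7 genes without overlap compare with 47.1% of all tested loci.

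**Figure D2:**
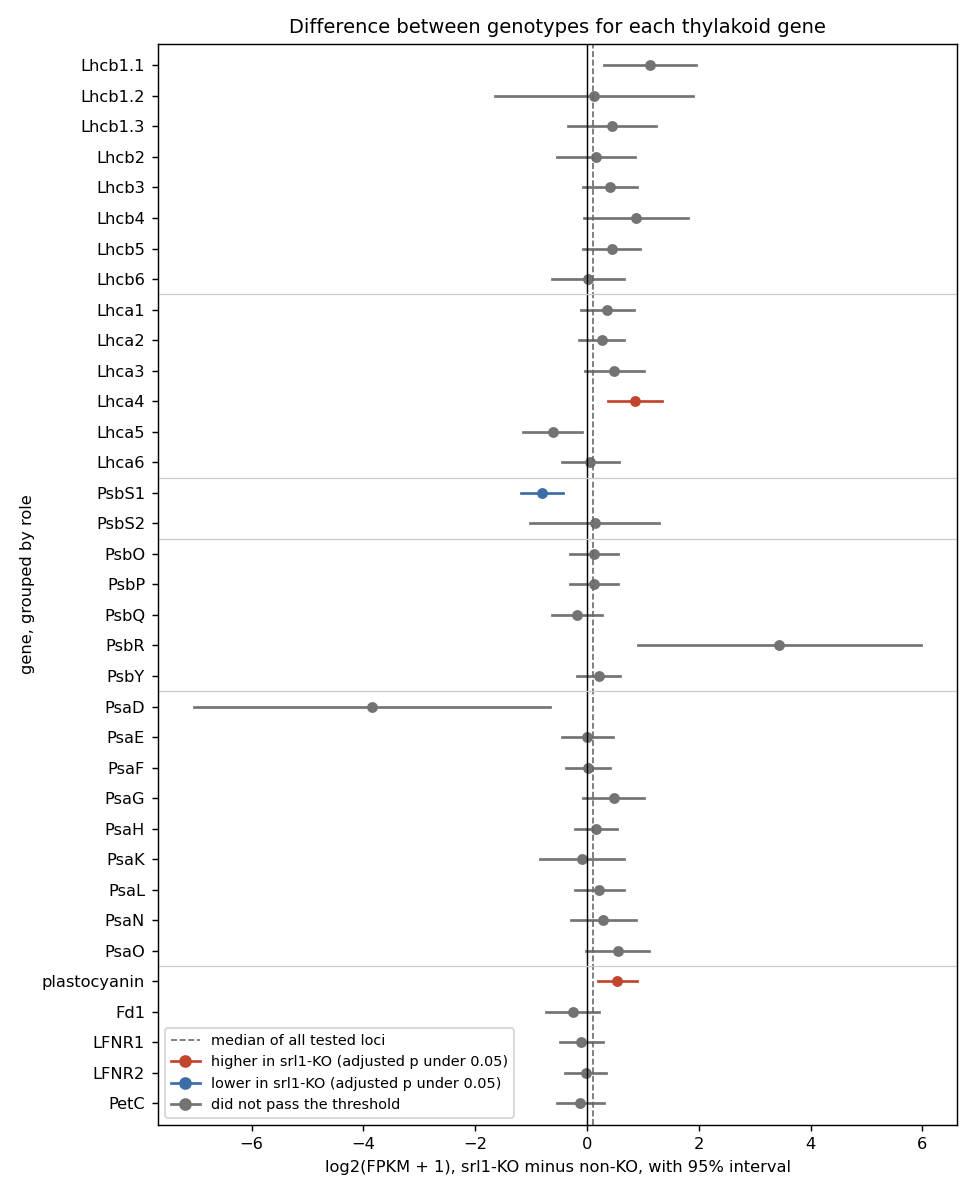
Log2 difference of each gene (srl1-KO minus non-KO, log2(FPKM + 1) scale) with its 95% interval, coloured by whether it passed the threshold, with the median of all tested loci as a dashed line. Lhca4 and plastocyanin lie above 0 and PsbS1 below it, while PsbR and PsaD have the widest intervals.

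PsbS1 (Os01g0869800, chromosome 1) is the main PsbS gene of the leaf by level. It was at 773, 836 and 925 FPKM in srl1-KO leaves and at 1449, 1345 and 1670 FPKM in non-KO leaves. Every srl1-KO library was lower than every non-KO library. The means were 845 ± 76.4 FPKM in srl1-KO and 1488 ± 166 FPKM in non-KO (SD, n = 3 each), a level 1.76-fold lower in srl1-KO. The log2 difference was -0.81 ± 0.16 (SE; limma adjusted p = 0.0115). The call was lost without srl1-KO replicate 2 (adjusted p = 0.0536) and on testing unfiltered loci (0.0777), and the size of the fall ran from -0.88 to -0.73 when 1 library was left out.

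The second PsbS gene, PsbS2 (Os04g0690800), was far lower, at 20.4, 33.1 and 32.1 FPKM in srl1-KO and 13.7, 21.0 and 55.1 FPKM in non-KO. Its non-KO libraries spanned the whole srl1-KO range, and the 95% interval of its log2 difference ran from -1.01 to 1.29. PsbS1 exceeded PsbS2 by 37.9, 25.3 and 28.8 times in the srl1-KO libraries and by 105, 64.2 and 30.3 times in the non-KO libraries. The srl1-KO ratios all lay below those of non-KO replicates 1 and 2, but srl1-KO replicate 1 lay above non-KO replicate 3, so the genotypes overlapped. The two-sided exact permutation test of the log2 ratio gave p = 0.2 (0.267 adjusted over 4 paralog pairs), where 0.1 is the smallest p that 3 libraries against 3 allow.

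The major trimeric antenna of photosystem II is built from Lhcb1, Lhcb2 and Lhcb3, and the minor antenna proteins Lhcb4 (CP29), Lhcb5 (CP26) and Lhcb6 (CP24) link it to the core. None of the 8 Lhcb genes passed the threshold. All 8 log2 differences were above 0 with the values as deposited, from 0.02 for Lhcb6 to 1.13 for Lhcb1.1, with a median of 0.42. With TMM factors Lhcb1.2 and Lhcb6 turned below 0 and 6 remained above it, with a median of 0.29. Lhcb6 also turned below 0 with quantile normalization.

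Lhcb1.1 (Os01g0600900, chromosome 1), an abundant Lhcb1 copy, was at 1754, 3537 and 3008 FPKM in srl1-KO and at 1101, 943 and 1729 FPKM in non-KO. The lowest srl1-KO library stood just above the highest non-KO library, so the genotypes met without overlapping. Its means were 2766 ± 916 and 1258 ± 415 FPKM (srl1-KO and non-KO; SD, n = 3 each), and its log2 difference of 1.13 ± 0.34 (SE) missed the threshold (limma adjusted p = 0.0523). With srl1-KO replicate 1 left out it passed (adjusted p = 0.0291), as it did on leaving out non-KO replicate 3 (adjusted p = 0.0378). It also passed in 5 further settings, with adjusted p between 0.0312 and 0.0488. Its position thus lies at the edge of what 3 libraries a genotype resolve.

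Lhcb1.3 (Os09g0346500, chromosome 9), the most abundant Lhcb gene, was at 2312, 3998 and 3181 FPKM in srl1-KO and at 1573, 2284 and 3215 FPKM in non-KO, with overlapping genotypes (log2 difference 0.45 ± 0.33 SE; limma adjusted p = 0.344). The level of Lhcb1.1 relative to Lhcb1.3 was 0.759, 0.885 and 0.946 in srl1-KO and 0.700, 0.413 and 0.538 in non-KO, without overlap. The log2 ratio differed by 0.68, and its two-sided p by exact permutation was 0.1, the smallest possible (0.267 adjusted over 4 pairs). Lhcb1 copies are close in sequence, and how the authors' counting divided reads between them is not given in the sources used here, so levels of single copies are uncertain.

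Lhcb1.2 (Os01g0720500, chromosome 1), a minor copy, ran from 33.1 to 146 FPKM in srl1-KO and from 26.4 to 122 FPKM in non-KO, a spread within each genotype far wider than the difference of the means (92.9 ± 56.7 FPKM in srl1-KO and 87.6 ± 53.2 FPKM in non-KO; SD, n = 3 each). It was lowest in srl1-KO replicate 1 and in non-KO replicate 2, the libraries in which most antenna genes were lowest. Its level relative to Lhcb1.3 gave a two-sided exact permutation p of 0.8, with a log2 difference of -0.32.

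Lhcb2 (Os03g0592500) averaged 820 ± 220 FPKM in srl1-KO and 735 ± 215 FPKM in non-KO, and Lhcb6 (Os04g0457000) 798 ± 173 FPKM in srl1-KO and 797 ± 216 FPKM in non-KO. Both differences were within the spread of the replicates. The direction turned without non-KO replicate 2 for both genes, and for Lhcb6 also without srl1-KO replicate 2 or 3. Lhcb3 (Os07g0562700), which occurs only in the major antenna, averaged 1363 ± 215 FPKM in srl1-KO and 1028 ± 190 FPKM in non-KO. Lhcb5 (Os11g0242800) averaged 1547 ± 327 FPKM in srl1-KO and 1129 ± 132 FPKM in non-KO. The log2 differences of Lhcb3 and Lhcb5 were 0.41 and 0.44, with 95% intervals from -0.07 to 0.89 and from -0.07 to 0.94.

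Lhcb4 (Os07g0558400, chromosome 7) was at 2501, 3074 and 3330 FPKM in srl1-KO and at 2579, 1775 and 896 FPKM in non-KO. The low value of non-KO replicate 3 set this gene apart from most antenna genes: of the 14, only Lhcb4, Lhca5 and Lhca6 were lowest in that non-KO library. The next lower identifier, Os07g0558300, was at 16.997, 11.03 and 13.6 FPKM in srl1-KO and at 29.6, 38.8 and 152 FPKM in non-KO, and so was highest in the library where Lhcb4 was lowest. Whether these are neighbouring transcripts whose reads were divided differently between libraries cannot be read from the file, and the level of Lhcb4 is reported as uncertain. Its log2 difference was 0.88 ± 0.39 (SE; limma adjusted p = 0.138). It was 0.46 when non-KO replicate 3 was left out, where the limma adjusted p was 0.22.

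In the antenna crescent beside the photosystem I core, Lhca1 pairs with Lhca4 and Lhca2 with Lhca3. Of the 6 Lhca genes, 1 rose and 5 were not called. Lhca4 (Os08g0435900, chromosome 8), which carries the most red-shifted chlorophylls of this antenna, was at 2995, 3927 and 3432 FPKM in srl1-KO and at 1862, 1636 and 2228 FPKM in non-KO. All srl1-KO libraries stood above all non-KO libraries. The means were 3451 ± 466 and 1909 ± 299 FPKM (srl1-KO and non-KO; SD, n = 3 each), a 1.81-fold higher level in srl1-KO with a log2 difference of 0.86 ± 0.20 (SE; limma adjusted p = 0.0237). Leaving out srl1-KO replicate 2 or 3, or the first or second non-KO library, took the adjusted p past the threshold, to between 0.0558 and 0.0922, and so did testing unfiltered loci (0.242), while the log2 difference stayed between 0.75 and 0.97 in the fits without 1 library.

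Lhca1 (Os06g0320500), the partner of Lhca4, was at 3256, 4226 and 4250 FPKM in srl1-KO and at 3235, 2771 and 3085 FPKM in non-KO. Its lowest srl1-KO value lay barely above its highest non-KO value, and the log2 difference of 0.36 ± 0.20 (SE) was not called (limma adjusted p = 0.217). The level of Lhca4 relative to Lhca1 was 0.9196, 0.929 and 0.807 in srl1-KO and 0.576, 0.591 and 0.722 in non-KO. This ratio was chosen after the values were seen and is given without a test.

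Lhca2 (Os07g0577600) averaged 2021 ± 278 FPKM in srl1-KO and 1677 ± 60.0 FPKM in non-KO. Lhca3 (Os02g0197600) averaged 1925 ± 362 FPKM in srl1-KO and 1369 ± 256 FPKM in non-KO. Their log2 differences of 0.26 and 0.49 were not called (limma adjusted p = 0.292 and 0.145). Lhca5 and Lhca6, minor antenna proteins that link photosystem I to the NDH complex in Arabidopsis, were the least expressed Lhca genes. Lhca5 (Os02g0764500) was at 31.8, 30.7 and 50.5 FPKM in srl1-KO and at 65.0, 59.7 and 47.2 FPKM in non-KO, and was the only Lhca gene with a log2 difference below 0 as deposited (-0.62 ± 0.22 SE; limma adjusted p = 0.082). Its genotypes overlapped through srl1-KO replicate 3, and without that library it passed the threshold (log2 difference -0.84, adjusted p = 0.0182). Lhca6 (Os09g0439500) averaged 200 ± 28.8 FPKM in srl1-KO and 195 ± 51.2 FPKM in non-KO, and its direction changed with TMM factors and with library weights.

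**Figure D3:**
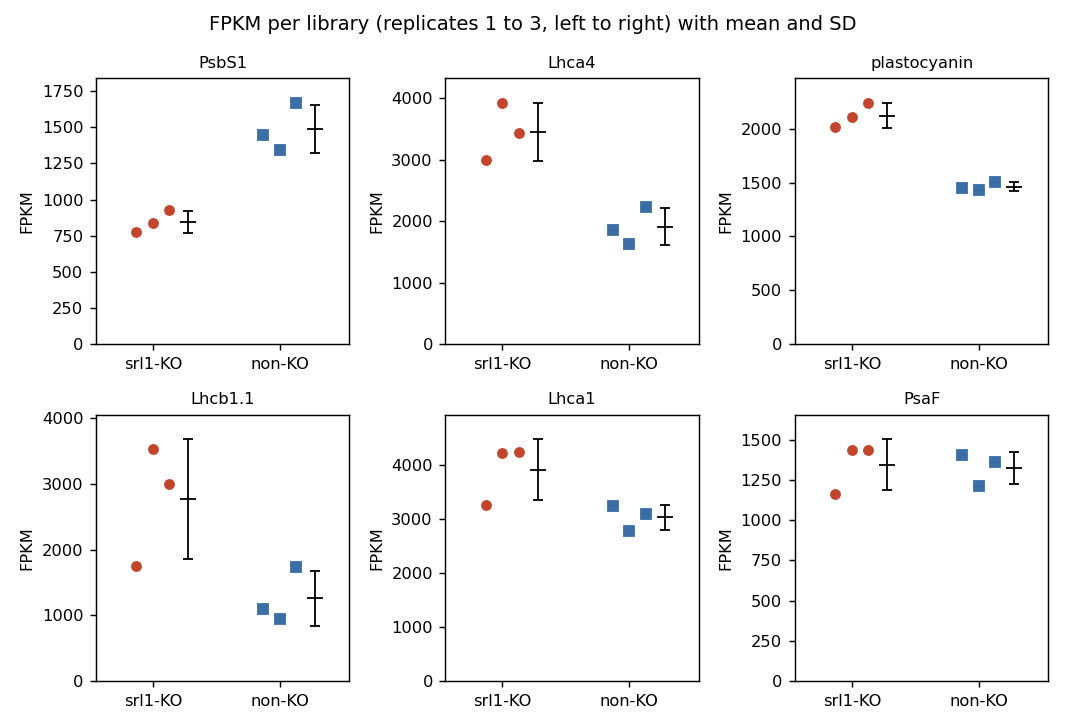
FPKM of PsbS1, Lhca4, plastocyanin, Lhcb1.1, Lhca1 and PsaF in each library (points, replicates 1 to 3 from left to right) with the mean and SD of each genotype, srl1-KO on the left. PsbS1 is lower and Lhca4 and plastocyanin are higher in all 3 srl1-KO libraries, whereas PsaF shows the same range in both genotypes.

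The oxygen-evolving complex on the lumenal side of photosystem II is stabilised by PsbO, PsbP and PsbQ. None of the 5 photosystem II genes was called. PsbO (Os01g0501800), the manganese-stabilising protein and the most abundant of the 5, was at 2167, 2781 and 2767 FPKM in srl1-KO and at 2413, 2179 and 2458 FPKM in non-KO. These ranges overlapped almost fully (log2 difference 0.12, 95% interval from -0.31 to 0.56). PsbP (Os07g0141400) averaged 1909 ± 246 FPKM in srl1-KO and 1744 ± 189 FPKM in non-KO, and PsbQ (Os07g0544800) averaged 1051 ± 152 FPKM in srl1-KO and 1187 ± 168 FPKM in non-KO. The log2 differences of PsbO and PsbP turned below 0 with TMM factors and with quantile normalization. PsbY (Os08g0119800), a small membrane subunit, averaged 864 ± 116 FPKM in srl1-KO and 746 ± 75.5 FPKM in non-KO.

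PsbR (Os07g0147500, chromosome 7), a small lumenal subunit that helps to hold PsbP and PsbQ, was uneven in both genotypes. It was at 362, 1156 and 215 FPKM in srl1-KO and at 8.30, 51.6 and 144 FPKM in non-KO. The genotypes did not overlap, but the highest library exceeded the lowest by 139 times, and the log2 difference of 3.44 ± 1.06 (SE) was not called (limma adjusted p = 0.0539; 95% interval from 0.91 to 5.98). It passed with quantile normalization (adjusted p = 0.0475), with library weights (adjusted p = 0.0196) and on leaving out non-KO replicate 3 (adjusted p = 0.0316). The next identifier, Os07g0147550, was at 5.25, 37.5 and 4.18 FPKM in srl1-KO and at 0.111, 0.315 and 1.996 FPKM in non-KO, the same order of libraries as PsbR. Whether both identifiers cover 1 transcribed region cannot be read from the file, and both are reported as uncertain. A further identifier, Os08g0200300, was listed as PsbR2 but had no matching name in the reference table. It was far above PsbR, at 2828, 4131 and 4648 FPKM in srl1-KO and at 3113, 3081 and 2463 FPKM in non-KO. Its genotypes overlapped, and its log2 difference of 0.40 ± 0.25 (SE) was not called (limma adjusted p = 0.269).

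None of the 9 photosystem I genes was called. PsaF (Os03g0778100), which docks plastocyanin, was at 1163, 1436 and 1440 FPKM in srl1-KO and at 1404, 1215 and 1365 FPKM in non-KO, and the 95% interval of its log2 difference ran from -0.37 to 0.40. PsaE (Os07g0435300), on the stromal side at the ferredoxin docking site, averaged 974 ± 163 FPKM in srl1-KO and 970 ± 132 FPKM in non-KO, with an interval from -0.46 to 0.46. PsaH (Os05g0560000), at the contact site for the mobile antenna, averaged 1567 ± 165 FPKM in srl1-KO and 1400 ± 83.2 FPKM in non-KO, with an interval from -0.22 to 0.53.

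PsaL (Os12g0420400), next to PsaH, was the most abundant photosystem I subunit gene, at 2492, 3019 and 2175 FPKM in srl1-KO and at 2140, 2184 and 2207 FPKM in non-KO. Its non-KO libraries agreed closely (coefficient of variation 1.57%), and its srl1-KO libraries reached from within that range to well above it (16.6%). PsaO (Os04g0414700), a small membrane subunit, was at 1055, 1467 and 1366 FPKM in srl1-KO and at 986, 656 and 1050 FPKM in non-KO, without overlap and not called (log2 difference 0.55 ± 0.24 SE; limma adjusted p = 0.131). PsaN (Os12g0189400), on the lumenal side, averaged 793 ± 131 FPKM in srl1-KO and 661 ± 190 FPKM in non-KO. PsaK (Os07g0148900) averaged 657 ± 48.9 FPKM in srl1-KO and 741 ± 284 FPKM in non-KO, and its direction turned without non-KO replicate 1 or 3. Os09g0481200, listed as PsaG but with that name placed on chromosome 5 in the reference table, averaged 695 ± 61.1 FPKM in srl1-KO and 512 ± 140 FPKM in non-KO, so its identity is uncertain.

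PsaD (Os08g0560900, chromosome 8), the stromal subunit that binds ferredoxin, split the non-KO libraries. It was at 30.7, 4.53 and 35.4 FPKM in srl1-KO and at 33.8, 732 and 747 FPKM in non-KO. Non-KO replicate 1 was thus at the srl1-KO level, and the other two non-KO libraries were at the level of other photosystem I genes. The log2 difference was -3.85 ± 1.33 (SE; limma adjusted p = 0.075) with all libraries and -5.32 without non-KO replicate 1 (adjusted p = 0.0134). The adjacent identifiers were at or under 0.480 FPKM in every library and held no matching signal. Of the 921 abundant loci, 34 (3.69%) differed by more than 5-fold between libraries of 1 genotype, and PsaD and PsbR were the 2 such genes among the 35.

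**Figure D4:**
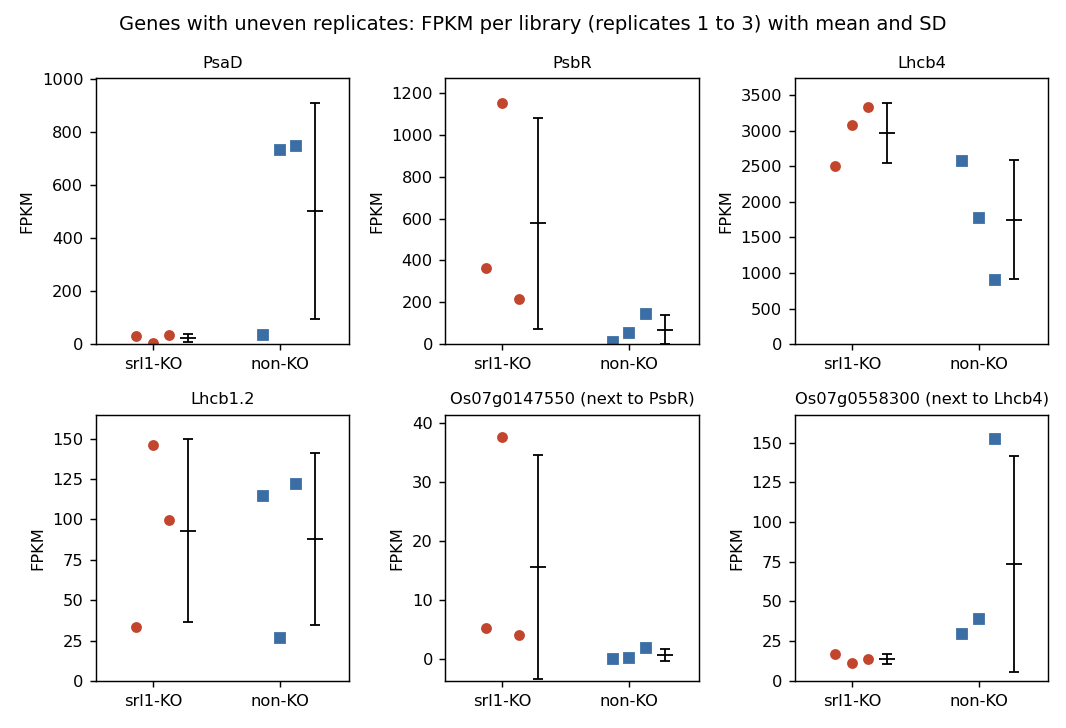
FPKM per library with mean and SD (srl1-KO left, non-KO right) for PsaD, PsbR, Lhcb4 and Lhcb1.2 and for the identifiers next to PsbR and Lhcb4. PsaD is at 732 and 747 FPKM in 2 non-KO libraries and at most at 35.4 FPKM in the other 4 libraries, and Os07g0558300 is highest where Lhcb4 is lowest.

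Of the 5 genes for electron carriers outside the photosystems, 1 was called. Plastocyanin (Os06g0101600, chromosome 6), the lumenal copper protein that carries electrons to photosystem I, was at 2012, 2111 and 2242 FPKM in srl1-KO and at 1450, 1428 and 1507 FPKM in non-KO. The genotypes were well separated, with the smallest relative spread of the 3 called genes. Its means were 2122 ± 116 and 1461 ± 40.7 FPKM (srl1-KO and non-KO; SD, n = 3 each), a 1.45-fold higher level in srl1-KO with a log2 difference of 0.54 ± 0.15 (SE; limma adjusted p = 0.037). The call did not survive leaving out any 1 library, where the adjusted p lay between 0.052 and 0.121. It was also lost with TMM factors (0.0787), quantile normalization (0.126) and unfiltered loci (0.304), as adjusted p.

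PetC (Os07g0556200), the Rieske iron-sulphur protein of the cytochrome b6f complex, was at 1293, 1248 and 1499 FPKM in srl1-KO and at 1550, 1637 and 1223 FPKM in non-KO. Fd1 (Os08g0104600), a ferredoxin, was at 468, 481 and 631 FPKM in srl1-KO and at 728, 504 and 666 FPKM in non-KO. In both genes the genotypes overlapped, and the 95% intervals of the log2 difference ran from -0.55 to 0.31 for PetC and from -0.73 to 0.21 for Fd1. LFNR1 (Os06g0107700) was at 866, 835 and 1017 FPKM in srl1-KO and at 1065, 1012 and 842 FPKM in non-KO. LFNR2 (Os02g0103800) was at 598, 542 and 670 FPKM in srl1-KO and at 662, 659 and 528 FPKM in non-KO. The identifier after LFNR2, Os02g0103850, was at 68.4, 62.8 and 76.0 FPKM in srl1-KO and at 0.000572, 135 and 48.0 FPKM in non-KO. Whether reads were divided differently between these identifiers in single libraries cannot be read from the file, so the level of LFNR2 and its ratio to LFNR1 carry this uncertainty. LFNR1 exceeded LFNR2 by 1.45 to 1.54 times in srl1-KO and by 1.54 to 1.61 times in non-KO (two-sided exact permutation p = 0.2, 0.267 adjusted over 4 pairs).

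Summed by role, Lhca transcripts reached 9686, 12742 and 12208 FPKM in srl1-KO and 8270, 7523 and 8916 FPKM in non-KO, without overlap. Lhcb transcripts summed to 10063, 15765 and 14727 FPKM in srl1-KO and to 9031, 8062 and 10330 FPKM in non-KO, and overlapped through srl1-KO replicate 1. The ratio of the means, srl1-KO over non-KO, was 1.48 for Lhcb, 1.40 for Lhca, 1.14 for photosystem II, 1.08 for photosystem I, 1.07 for electron transport and 0.576 for PsbS. The photosystem II sum holds PsbR, with means of 578 FPKM in srl1-KO and 67.9 FPKM in non-KO. The photosystem I sum holds PsaD, with means of 23.5 FPKM in srl1-KO and 504 FPKM in non-KO. Both genes were uneven between replicates, so the ratios of the photosystems, and the order of these ratios, rest in part on them. The median log2 difference of single genes was 0.42 for Lhcb, 0.31 for Lhca, 0.13 for photosystem II, 0.16 for photosystem I and -0.10 for electron transport. With TMM factors these medians were 0.29, 0.18, -0.0013, 0.03 and -0.23 in the same order of roles, and with quantile normalization 0.28, 0.30, -0.057, 0.0054 and -0.15, so the sign for photosystem II turned with the scaling. These group values are descriptions, and whether the roles differ from each other was not tested.

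Much of the spread lay between libraries of 1 genotype and was shared by many genes. Srl1-KO replicate 1 held the lowest value of its genotype at 27 of the 35 genes, 12 of the 14 antenna genes among them, and the highest at none. Non-KO replicate 2 held the lowest value of its genotype at 21 of the 35 genes and the highest at 1. Over all loci, srl1-KO replicate 1 also had the lowest FPKM sum of its genotype (598611, against 628270 and 622468). How often each library was lowest over all loci was not counted, so this pattern is not shown to be particular to the 35 genes. All 35 genes summed to 40343, 53518 and 51128 FPKM in srl1-KO and to 39784, 35881 and 42339 FPKM in non-KO, so that srl1-KO replicate 1 lay within the non-KO range. The median coefficient of variation of the 35 genes was 14.5% in srl1-KO and 15.9% in non-KO, against 11.9% and 14.2% for the 921 abundant loci. For all tested loci it was 13.5% in srl1-KO and 15.9% in non-KO. The median log2 difference of the 35 genes, 0.16 with all libraries, depended on single libraries in both directions. It was 0.32 without srl1-KO replicate 1, 0.097 without srl1-KO replicate 2, 0.065 without srl1-KO replicate 3 and 0.069 without non-KO replicate 2.

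Of 17 further thylakoid and related genes written down by identifier, 6 had a name in the reference table on the right chromosome and were used. Of these 6, 3 rose, 1 fell and 2 were not called, beside 15.3% of all tested loci called higher and 11.9% called lower. None of the identifiers left out was called, so of all 17 the same 3 rose and 1 fell. The 35 members were not held to this name check. GLK1 (Os06g0348800), a GARP transcription factor known to promote expression of antenna and chlorophyll synthesis genes, was at 26.8, 45.2 and 39.98 FPKM in srl1-KO and at 6.84, 9.35 and 15.2 FPKM in non-KO. The genotypes were clearly apart, with a 3.57-fold higher mean in srl1-KO (log2 difference 1.77 ± 0.31 SE; limma adjusted p = 0.00772), and the call held in all 16 alternative settings. GLK2 (Os01g0239000), its paralog, was at 39.4, 47.4 and 41.2 FPKM in srl1-KO and at 28.5, 38.5 and 45.6 FPKM in non-KO and was not called (adjusted p = 0.443).

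Both FNR genes outside the leaf pair, known as root-type isozymes, rose, at levels far below the leaf pair. The copy on chromosome 7 (Os07g0147900) was at 30.1, 28.7 and 23.6 FPKM in srl1-KO and at 13.9, 15.6 and 15.4 FPKM in non-KO (log2 difference 0.83 ± 0.12 SE; limma adjusted p = 0.00466). The copy on chromosome 3 (Os03g0784700) was at 12.7, 16.6 and 12.1 FPKM in srl1-KO and at 7.95, 7.77 and 7.92 FPKM in non-KO (log2 difference 0.73 ± 0.14 SE; limma adjusted p = 0.0109). These calls held in all 16 alternative settings, while neither leaf FNR gene was called. Psb28 (Os01g0938100), a photosystem II assembly factor, fell to 30.3, 28.8 and 44.96 FPKM in srl1-KO, against 78.5, 55.6 and 70.4 FPKM in non-KO (log2 difference -0.97 ± 0.21 SE; limma adjusted p = 0.0171). Its adjusted p was between 0.0557 and 0.064 on leaving out srl1-KO replicate 1 or 2 or the first non-KO library. PsbW (Os01g0773700), a small photosystem II subunit, averaged 1975 ± 65.9 FPKM in srl1-KO and 2161 ± 228 FPKM in non-KO and was not called. Psb28, GLK2 and PsbW, and Os08g0200300 above, are named outside the rule for this list, after their values were seen. None of the 11 identifiers without a matching name passed the threshold.

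Transcripts of antenna genes are known to follow the circadian clock, so clock genes were read beside them. Of 9 clock genes written down by identifier, 8 had a matching name in the reference table and were used. Of these 8, 3 rose, none fell and 5 were not called, beside 15.3% of all tested loci called higher and 11.9% called lower. TOC1 (Os02g0618200) and the unmatched Os11g0157600 (listed as PRR59) were lower in srl1-KO without overlap, as were 17.8% of all tested loci. Neither was called (limma adjusted p = 0.107 and 0.117), and both are named after their values were seen. PRR95 (Os09g0532400) was at 270, 326 and 356 FPKM in srl1-KO and at 122, 127 and 174 FPKM in non-KO (log2 difference 1.18 ± 0.18 SE; limma adjusted p = 0.00526). ELF3 (Os06g0142600) was at 22.0, 23.8 and 24.8 FPKM in srl1-KO and at 14.4, 14.9 and 16.6 FPKM in non-KO (log2 difference 0.59 ± 0.10 SE; limma adjusted p = 0.00839). LUX (Os01g0971800) was at 258, 241 and 319 FPKM in srl1-KO and at 185, 102 and 98.6 FPKM in non-KO (log2 difference 1.13 ± 0.26 SE; limma adjusted p = 0.0223), a call lost on leaving out any library but non-KO replicate 1, with adjusted p between 0.0551 and 0.0666. The time of day of sampling is not given in the sources used here, and the part of these differences in the results on the photosystem genes was not tested.

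**Figure D5:**
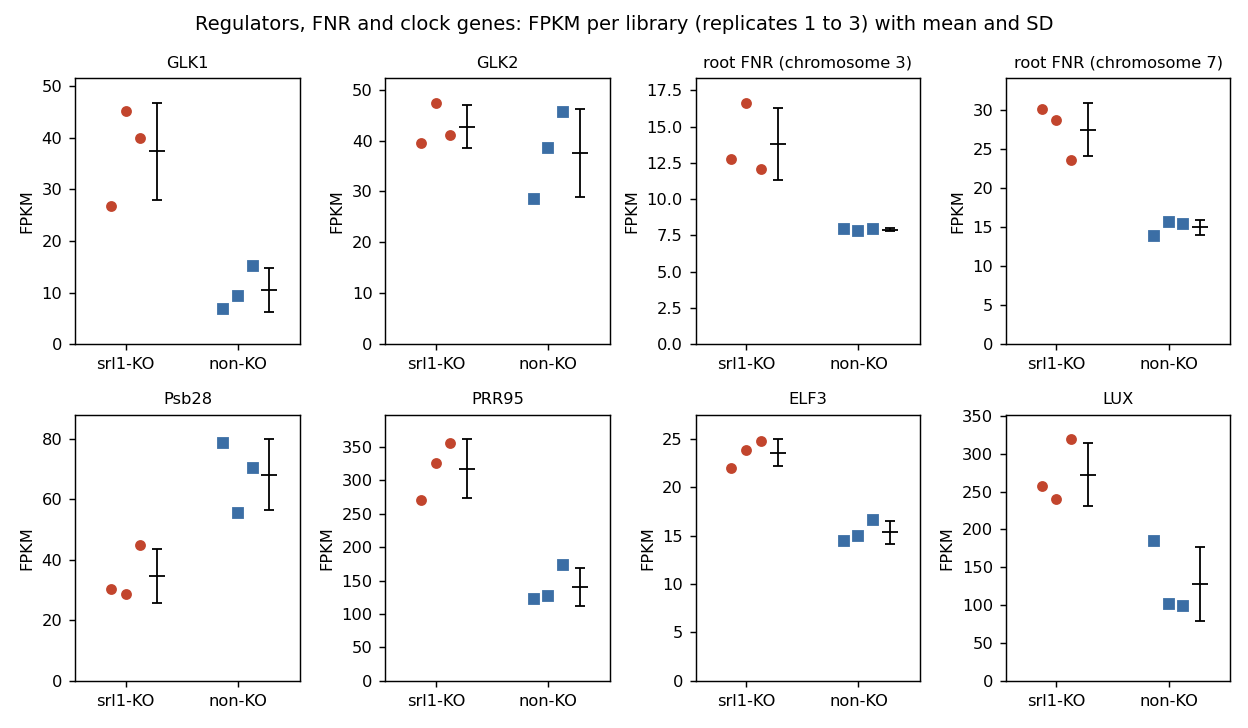
FPKM per library with mean and SD (srl1-KO left, non-KO right) for GLK1, GLK2, the 2 root-type FNR genes, Psb28, PRR95, ELF3 and LUX. GLK1, both FNR genes, PRR95, ELF3 and LUX are higher and Psb28 is lower in all 3 srl1-KO libraries, and GLK2 overlaps.

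None of 3 genes of chlorophyll breakdown with a name in the reference table was called, and the most highly expressed of them, NYC1 (Os01g0227100), averaged 227 ± 29.3 FPKM in srl1-KO and 198 ± 7.74 FPKM in non-KO. The other 2 identifiers of the leaf ageing list, Os03g0146400 (listed as PAO) and Os03g0327800 (listed as NAP), had no matching name there. Both were called higher in srl1-KO, without overlap, beside 15.3% of all tested loci called higher. Their log2 differences were 0.81 and 1.23 (limma adjusted p = 0.0181 and 0.0357). Of 4 mesophyll markers, the Rubisco small subunit gene Os12g0291100 fell (2493 ± 64.5 FPKM in srl1-KO and 3721 ± 195 FPKM in non-KO; limma adjusted p = 0.0427) and 3 were not called; its call was lost on leaving out any 1 library (adjusted p between 0.0693 and 0.15). The summed level of the 4 markers was 7564 to 9063 FPKM in srl1-KO and 9232 to 14169 FPKM in non-KO. The genotypes thus nearly met, without overlap and in the direction opposite to the antenna sums. In the highest sum, that of non-KO replicate 1, the Rubisco small subunit gene Os12g0274700 alone held 8867 FPKM. Each of the 3 markers not called overlapped between the genotypes. The 3 secondary-wall cellulose synthases, markers of fibre and xylem cells, summed to 2.82 to 8.07 FPKM in srl1-KO and 2.05 to 18.4 FPKM in non-KO, and none was called. CESA4, the highest of them, averaged 2.01 ± 0.694 FPKM in srl1-KO and 2.98 ± 2.31 FPKM in non-KO. ROC5, a factor of the epidermis, fell (16.8 ± 1.07 FPKM in srl1-KO and 22.1 ± 1.15 FPKM in non-KO; limma adjusted p = 0.0341), and of the fits without 1 library only that without srl1-KO replicate 3 kept the call (adjusted p = 0.0413, otherwise 0.055 to 0.121). The part of cell composition in the results was not tested.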

How the data were processed

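The authors deposited FPKM values, 1 column per library and replicates not pooled. HISAT2, DESeq2 and the build IRGSP-1.0 are named per the submitters' processing notes, with neither roles nor versions. How FPKM were computed, on which annotation, and whether counting was stranded is not given in the sources used here. Libraries were made from poly(A) RNA (1 µg total RNA, fragments near 240 bp), per the labels' protocols. FPKM corrects for length and mapped total, so large changes in abundant genes shift all others. The depth is unknown, so no counting interval or detection limit is given.

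Loci averaging 1 FPKM or more were compared as log2(FPKM + 1) in limma 3.58.1 (R 4.3.3; two-sided moderated test, eBayes with trend, Benjamini-Hochberg over all tested loci); the procedure was tested on simulated data. Paralog ratios used exact permutation tests. Members and lists were chosen with earlier results of these data known. All members could be named; from other lists, up to 3 called genes with the smallest adjusted p, otherwise the most highly expressed. Which further members are given per library was chosen after their values were seen. The file gives no gene names: member names come from the defining list and general knowledge of rice annotation. The reference table (assembly ASM3414082v1, used for names only) placed 9 of the 35 on the chromosome given by the identifier, 1 (PsaG) on another, and held no matching name for 25. No sequences were used. Pairing, scaling, pseudocount, filter, variance model, library weights and single libraries were varied.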

Additional observations from a re-analysis of the deposited data

How the results depend on the processing

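With the values as deposited, 2 of the 35 genes were called higher and 1 lower in srl1-KO. The number called higher was 0 with no filter on low values, 1 with TMM factors, 4 with library weights and 0 with the replicate block, and the number called lower was 0 with no filter and 2 with library weights. Leaving out 1 library gave 0 to 3 genes called higher and 0 to 2 called lower. The cause was not tested. Of the 6 further thylakoid genes used, 0 to 1 were called lower when 1 library was left out, and 3 were called higher in every setting. The number of all called loci was 5321 as reported, between 3649 (replicate block) and 6662 (library weights) over the other settings with all libraries, 4794 with TMM factors among them, and 2959 to 4638 without 1 library.

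PsbS1 kept its call under the replicate block (adjusted p = 0.0372), while Lhca4 (adjusted p = 0.0686) and plastocyanin (adjusted p = 0.101) did not. Deviations of same-numbered libraries correlated at -0.05, 0.05 and 0.02, so the numbers were not taken to pair the libraries.

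With TMM factors the log2 difference turned sign for Lhcb1.2 (-0.0016), Lhcb6 (-0.11), Lhca6 (-0.068), PsbO (-0.0062), PsbP (-0.0013), PsaE (-0.13) and PsaF (-0.11), with quantile normalization for Lhcb6 (-0.014), PsbO (-0.14), PsbP (-0.057), PsaE (-0.015) and PsaF (-0.12), and with library weights for Lhca6 (-0.079). None of these genes was called in any setting. Leaving out 1 library gave log2 differences from -0.58 to 0.74 for Lhcb1.2, -0.023 to 0.41 for Lhcb2, -0.22 to 0.21 for Lhcb6, -0.13 to 0.25 for Lhca6, -0.28 to 0.68 for PsbS2, -0.12 to 0.15 for PsaE, -0.048 to 0.12 for PsaF, -0.46 to 0.14 for PsaK, -0.14 to 0.046 for LFNR2 and -0.54 to 0.16 for CESA4. The log2 difference of the summed FPKM of the 35 genes was 0.29 as reported, 0.16 with TMM factors, 0.30 with equal sums and between 0.21 and 0.41 without 1 library. The depth is unknown, so the precision of low genes such as PsbS2 is known from the replicates only.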
